A study of Mus musculus with 43 samples.

Results

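Wild-type (C57BL/6J) mice kept at thermoneutrality, 30 C, were compared with mice kept at room temperature, 22 C, at postnatal day 28 (P28), shortly after weaning. Inguinal white adipose tissue, the subcutaneous fat of the groin, was profiled by poly(A) RNA sequencing in 4 samples per temperature, 8 of the 43 samples of the series. Members were all genes that reached 10 normalized counts in at least 4 of the 8 libraries, which held for 12283 of 22622 gene identifiers. Neither group carried a transgene, a deletion or a drug, and housing temperature was the stated difference between them. A separate pair of wild-type groups, 9 weeks old and kept at 22 C or 4 C (n = 4 each), gave a second warmer-against-cooler contrast with no library in common. The series title names beige adipocyte development near weaning and in the cold as the study's subject.

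Beige adipocytes are heat-producing fat cells scattered in white fat. Their mitochondria carry Ucp1, a carrier that lets protons back across the inner membrane without making ATP, so that the energy of burned fatty acids leaves as heat. Sympathetic nerves drive the cells through beta-adrenergic receptors and cyclic AMP, and room temperature is itself a mild cold load for a mouse, which thermoneutral housing removes.

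Values are the deposited normalized counts, and in each list of 4 they stand in the order of replicates 1 to 4. A gene was called changed when its adjusted p was under 0.05 in limma over all 12283 genes, on log2(value + 1), and every fold change is 30 C minus 22 C with its standard error (SE). By that rule 547 genes changed, 4.45% of those tested: 389 fell at 30 C (3.17%) and 158 rose (1.29%). Most changes were small, with 34 falls and 29 rises of at least 1 on the log2 scale and medians of -0.52 and 0.55. In 386 of the 389 genes that fell every 30 C library lay below every 22 C library, a separation seen in 7.72% of all genes tested. All 158 that rose had every 30 C library above every 22 C library, against 5.23% of all genes. The calls rest on these same values, so separation among called genes is no further support for them.

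The depth estimated from the spacing of low values was 3830000 to 6432000 reads per library. The labels give no animal numbers, so p-values speak only of the spread among these samples, which may be technical. Fat markers were abundant in every library, with Adipoq at 10237, 10820, 8972 and 10557 normalized counts at 22 C and 10162, 12105, 11204 and 12059 at 30 C. The adipocyte marker list made up 2.36 to 2.97% and 2.87 to 3.20% of all counts. That sum includes Cfd, which rose, while 11 of the 15 markers had a negative fold change and the list median was -0.13. Transcripts of skeletal muscle were uneven: the 24-gene list summed to 0.0161 to 0.0327% of counts at 22 C and, at 30 C, to 0.156, 0.127, 0.0188 and 0.442%. Its defining genes Ckm and Acta1 were above 0 in all 8 libraries, 16 of the 24 were tested and 0 were called by limma or limma-voom (8 with an unadjusted p under 0.05), with a median of 2.45. Xist RNA was high in replicates 3 and 4 at 22 C and 1 to 3 at 30 C and near 0 in the others. In those others the list of Xist, Tsix and Y-linked genes still summed to 1151 and 1019 normalized counts at 22 C and 1099 at 30 C. The labels give no sex, Xist-high libraries were unequal in number between the temperatures, and the part of sex was not tested. Mammary epithelial markers ranged from 0.0174 to 0.181% at 22 C and from 0.0188 to 0.238% at 30 C. The part of muscle content in single results was not tested, but 30 C replicate 3 held as little muscle RNA as the 22 C libraries and is therefore named beside the main groups.

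**Figure D1:**
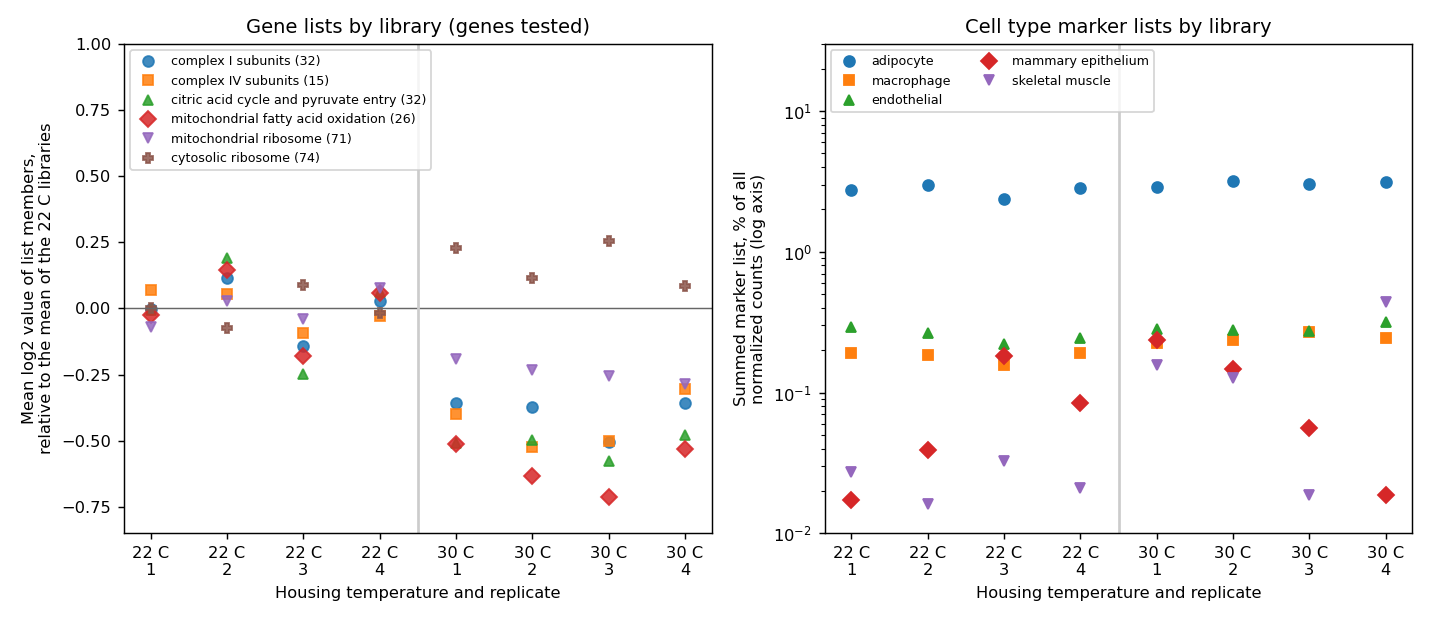
Left, the mean log2 value of the tested genes of 6 lists in each library, relative to the mean of the 22 C libraries. The 5 mitochondrial lists lie lower in all 4 libraries at 30 C than in any at 22 C, and the cytosolic ribosome list reaches 0.26 in replicate 3 at 30 C. Right, summed marker lists as a percentage of all normalized counts on a log axis, where skeletal muscle is high in replicates 1, 2 and 4 at 30 C only.

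The fall of Ucp1 was the largest among all 389 genes that fell. Ucp1 (gene ID 22227, mm10 chr8:83290348-83298456) stood at 2194, 2121, 949.9 and 1766 at 22 C and at 136, 59.3, 71.8 and 169 at 30 C. The groups were far apart, and replicate 3 was the lowest of the 22 C libraries. The log2 fold change was -4.06 ± 0.37 (limma adjusted p = 0.0017). Beside it, Otop1 (gene ID 21906, mm10 chr5:38277404-38304217), a proton channel abundant in brown fat, read 247, 290.3, 152 and 189.7 at 22 C and 55.9, 31.5, 25.2 and 59.6 at 30 C, a change of -2.37 ± 0.31 (limma adjusted p = 0.00536). Elovl3, a fatty acid elongase of brown fat, did not reach the expression filter. It read 7.08, 23.3, 14.3 and 11.6 at 22 C and 1.09, 0.898, 1.26 and 0.838 at 30 C, with no overlap and no test.

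Of 26 tested effectors of beige and brown fat, 10 fell and 0 rose, 38.5% against the 3.17% of all genes, with a median of -0.39 against 0.01 over all genes. With 1 library left out the count ran from 5 without any of 4 libraries to 12 without 22 C replicate 3. In bulk tissue, fewer beige cells and less of these RNAs per cell cannot be told apart. Gk (gene ID 14933, mm10 chrX:85701937-85776819), glycerol kinase, which lets fat cells reuse the glycerol of their own lipolysis, held 182, 187, 223 and 204 at 22 C and 91.1, 92.8, 42.5 and 65.0 at 30 C, with no overlap (-1.50 ± 0.23). Cox7a1 and Cox8b are the cytochrome oxidase subunit forms of brown fat, heart and skeletal muscle. Cox7a1 gave 206, 202, 170.2 and 172 and 62.3, 54.8, 51.6 and 106, and the highest 30 C value came from replicate 4, the library richest in muscle RNA (-1.49 ± 0.21). Cpt1b, the gate for fatty acid entry into the mitochondria of muscle and brown fat, fell by 1.32 on the log2 scale and was likewise highest at 30 C in replicate 4. Acot11, also known as brown fat inducible thioesterase, fell too (-1.45 ± 0.28). Cidea, a lipid droplet protein widely used as a brown fat marker, did not pass: its values of 1547, 1359.6, 881 and 1068 at 22 C and 681, 557, 489.8 and 969 at 30 C overlapped through replicate 4 at 30 C (-0.86 ± 0.23, limma adjusted p = 0.0754).

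**Figure D2:**
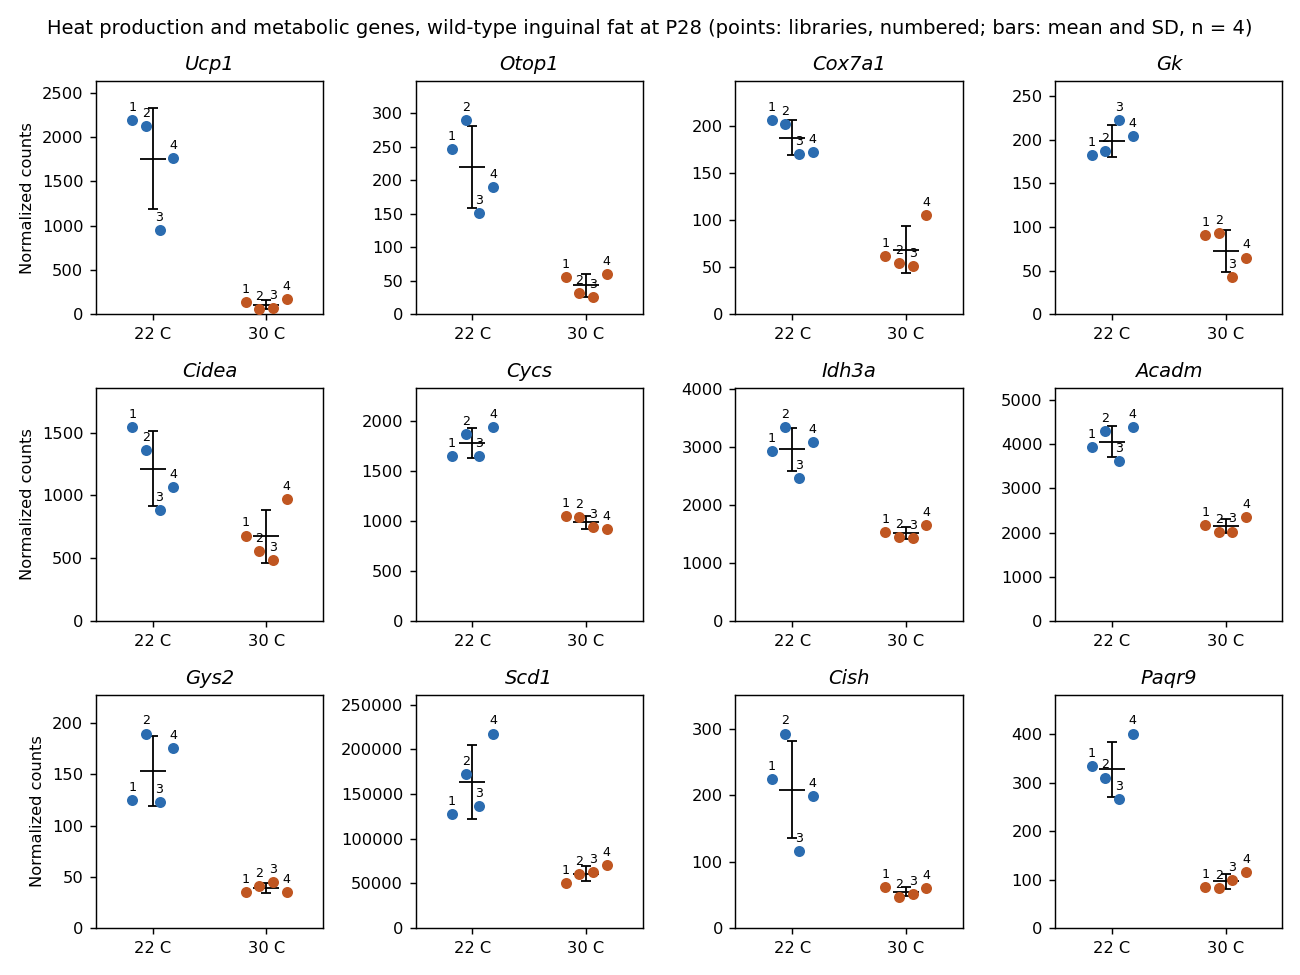
Normalized counts of 12 genes in each library, on linear axes from 0; points are libraries with their replicate number and bars the mean and SD (n = 4). The groups are separate in 11 panels, and in Cidea replicate 4 at 30 C lies above replicate 3 at 22 C.

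The transcription regulators of beige fat changed in both directions, and their list was not divided into activators and repressors. Of 41 tested transcription regulators of beige fat 4 rose, 1 fell and 36 did not pass, with a median of 0.12. Ppargc1a, the coactivator that drives mitochondrial biogenesis in the cold, read 105, 116, 116 and 96.2 at 22 C and 153, 123, 95.9 and 138 at 30 C, with overlapping groups (0.22 ± 0.15). Prdm16, a determinant of brown and beige identity, overlapped as well (0.13 ± 0.20). The fall was in Esrra, the estrogen-related receptor alpha that binds genes of oxidative metabolism, at 559, 593, 465 and 580.0 and 396, 454, 404 and 404 (-0.40 ± 0.09, limma adjusted p = 0.0405). Its call was lost in 7 of the 8 fits that left out 1 library. Esrra was also the single gene called among 39 tested nuclear receptors. The 4 that rose were Cebpd, Irf4, Tle3 and Klf15, and all but Tle3 are described with the rises below.

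Genes of the respiratory chain fell broadly and by small amounts. Over complexes I to IV and the ATP synthase, 71 nuclear-encoded subunits were tested, 43 fell, 0 rose and 28 did not pass, and the median was -0.41. In 47 of the 71 every 30 C library was below every 22 C library, and 68 had a negative fold change, where 48.1% of all genes did. The library with little muscle RNA, replicate 3 at 30 C, was below all 4 of the 22 C libraries in 65 of the 71, against 24.4% of all genes. The 3 subunits with a positive fold change, none of them called, were Atpif1, the inhibitor of the synthase, Cox7a2l, a supercomplex factor, and Ndufs7. With the muscle score in the model the complex I median was -0.46 instead of -0.41, and 3 of its 32 members fell by that fit instead of 20. The score follows temperature except in replicate 3 at 30 C, so that fit cannot separate the 2, and the part of muscle was not tested.

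By complex, 20 of 32 members of the complex I list fell, as did 2 of 3 of complex II, 6 of 8 of complex III, 10 of 15 of complex IV and 6 of 14 of the ATP synthase. Ndufa4 stands in the lists of complexes I and IV. In complex I the count ran from 7 without 22 C replicate 4 to 23 without 22 C replicate 3; in complex IV the count ran from 4 without 22 C replicate 4 to 11 without 22 C replicate 3; and in the ATP synthase the count ran from 2 without 22 C replicate 4 to 8 without 22 C replicate 3. In complex I, the NADH dehydrogenase that feeds electrons in, the steepest falls were Ndufb6 at -0.76 ± 0.08 and Ndufc1 at -0.75 ± 0.10. Ndufs1, which holds iron-sulfur clusters of the electron path, went from 1644, 1991, 1572 and 1958 to 1199.8, 1228, 1204 and 1197, and the 4 libraries at 30 C lay within a narrow band. In complex III, Uqcrc2 and the Rieske protein Uqcrfs1 fell by 0.63 and 0.63 on the log2 scale. Uqcrfs1 read 1855, 2026, 1687 and 1889.8 at 22 C and 1292, 1199, 1128 and 1209.8 at 30 C. Outside the 2 tissue-restricted forms Cox7a1 and Cox8b, the falls of complex IV ran from -0.60 ± 0.07 for Cox7b to -0.39 ± 0.07 for Cox7a2. The synthase changed least by median (-0.29), with its catalytic beta subunit Atp5b at -0.49 ± 0.10.

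Electron carriers outside the complexes fell as well. Of 18 tested genes of coenzyme Q synthesis and electron entry 8 fell and 0 rose. Cycs, cytochrome c, read 1646, 1872, 1649.5 and 1939.8 at 22 C and 1044, 1037, 942 and 921 at 30 C, so the groups were separated by a wide gap (-0.85 ± 0.08, limma adjusted p = 0.0017). Etfdh, which passes electrons from fatty acid oxidation to coenzyme Q, read 1568, 1679.5, 1394 and 1586 and 893, 826, 789 and 977, and Gpd2, the mitochondrial glycerophosphate dehydrogenase, fell by 0.90 on the log2 scale. Assembly factors of the chain fell in 9 of 40 cases, led by Cox20 (-0.76 ± 0.16) and Cox19 (-0.73 ± 0.12).

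Smaller shares were called in the machinery that builds and shapes mitochondria. Among 71 tested proteins of the mitochondrial ribosome 11 fell and 0 rose, the median was -0.25, and 67 had a negative fold change. In this list the count ran from 0 without 22 C replicate 2 to 9 without 22 C replicate 3, and was 1 with the replicate block and 0 with the muscle score in the model, and 0 genes passed in all 8 fits that left out 1 library. The steepest was Mrpl34 at -0.60 ± 0.12. In import and dynamics 12 of 45 fell (the count ran from 4 without 22 C replicate 4 to 15 without 22 C replicate 3), with Letm1, an inner-membrane cation exchanger, at -0.91 ± 0.07, the organizing factor Immt at -0.49 ± 0.06 and the fusion protein Opa1 at -0.37 ± 0.06. Of 35 tested mitochondrial carriers 5 fell: Ucp1, Ucp3, Slc25a35, Slc25a20 and Slc25a46. Slc25a20 brings acylcarnitines into the matrix and read -0.76 ± 0.08.

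Genes of fuel oxidation fell too. In the citric acid cycle and pyruvate entry 19 of 32 tested genes fell and 0 rose, with a median of -0.50 (the count ran from 10 without 22 C replicate 4 to 22 without 22 C replicate 3). Mpc2, a subunit of the carrier through which pyruvate enters mitochondria, had the steepest fall, at 1087, 1379.6, 884 and 1310.2 and 503, 616, 536 and 501 in the libraries at 22 C and 30 C (-1.09 ± 0.14). Pdhb, of the pyruvate dehydrogenase complex, followed at -0.99 ± 0.15. Idh3a, the catalytic subunit of the rate-setting isocitrate dehydrogenase, read 2941, 3353, 2472 and 3094 and 1529.9, 1455, 1439 and 1662, with no overlap (-0.96 ± 0.10, limma adjusted p = 0.00211). Pdk4, the kinase that shuts pyruvate dehydrogenase down, overlapped between temperatures (0.09 ± 0.27).

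In mitochondrial fatty acid oxidation 17 of 26 fell and 0 rose, and the median of -0.59 was lower than that of the cycle or of any complex. With 1 library left out the count ran from 11 without 22 C replicate 1, 22 C replicate 2 or 22 C replicate 4 to 18 without 22 C replicate 3. The falls took in Cpt2 and Slc25a20 of the carnitine shuttle, the acyl-CoA dehydrogenases Acadvl, Acadl and Acadm, and Hadha and Hadhb of the trifunctional protein, which completes the cycle for long chains. Acadm, the medium-chain enzyme, read 3921, 4301, 3609.7 and 4390.4 at 22 C and 2165, 2016, 2023 and 2358 at 30 C (-0.92 ± 0.08, limma adjusted p = 0.0017). The lowest 22 C library, replicate 3, still exceeded the highest at 30 C by a wide margin. In peroxisomes, which shorten very long chains, 7 of 39 fell (the count ran from 2 without any of 4 libraries to 14 without 22 C replicate 3), among them Abcd3 (-0.67 ± 0.06) and Hsd17b4 (-0.64 ± 0.08). Breakdown of branched-chain amino acids, a fuel of brown fat, had 6 of 25 that fell (the count ran from 2 without any of 5 libraries to 7 without 22 C replicate 3), with Pcca at -0.62 ± 0.08 and Acat1 at -0.57 ± 0.08.

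Across the 32 tested heme, iron and antioxidant genes 5 fell, 1 rose and 26 did not pass (the count ran from 3 without any of 5 libraries to 8 without 22 C replicate 3). Sod2, the superoxide dismutase of the matrix, held 1703, 1699, 1309 and 1588 at 22 C and 851, 824, 847 and 934 at 30 C (-0.86 ± 0.09, limma adjusted p = 0.00267). Prdx3, the peroxiredoxin of mitochondria, fell by 0.60 on the log2 scale. Gpx3, the glutathione peroxidase secreted into plasma, went the other way, from 7131, 7677, 6069.6 and 6999 to 12586, 11733, 11610 and 11311, with no overlap (0.76 ± 0.09).

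**Figure D3:**
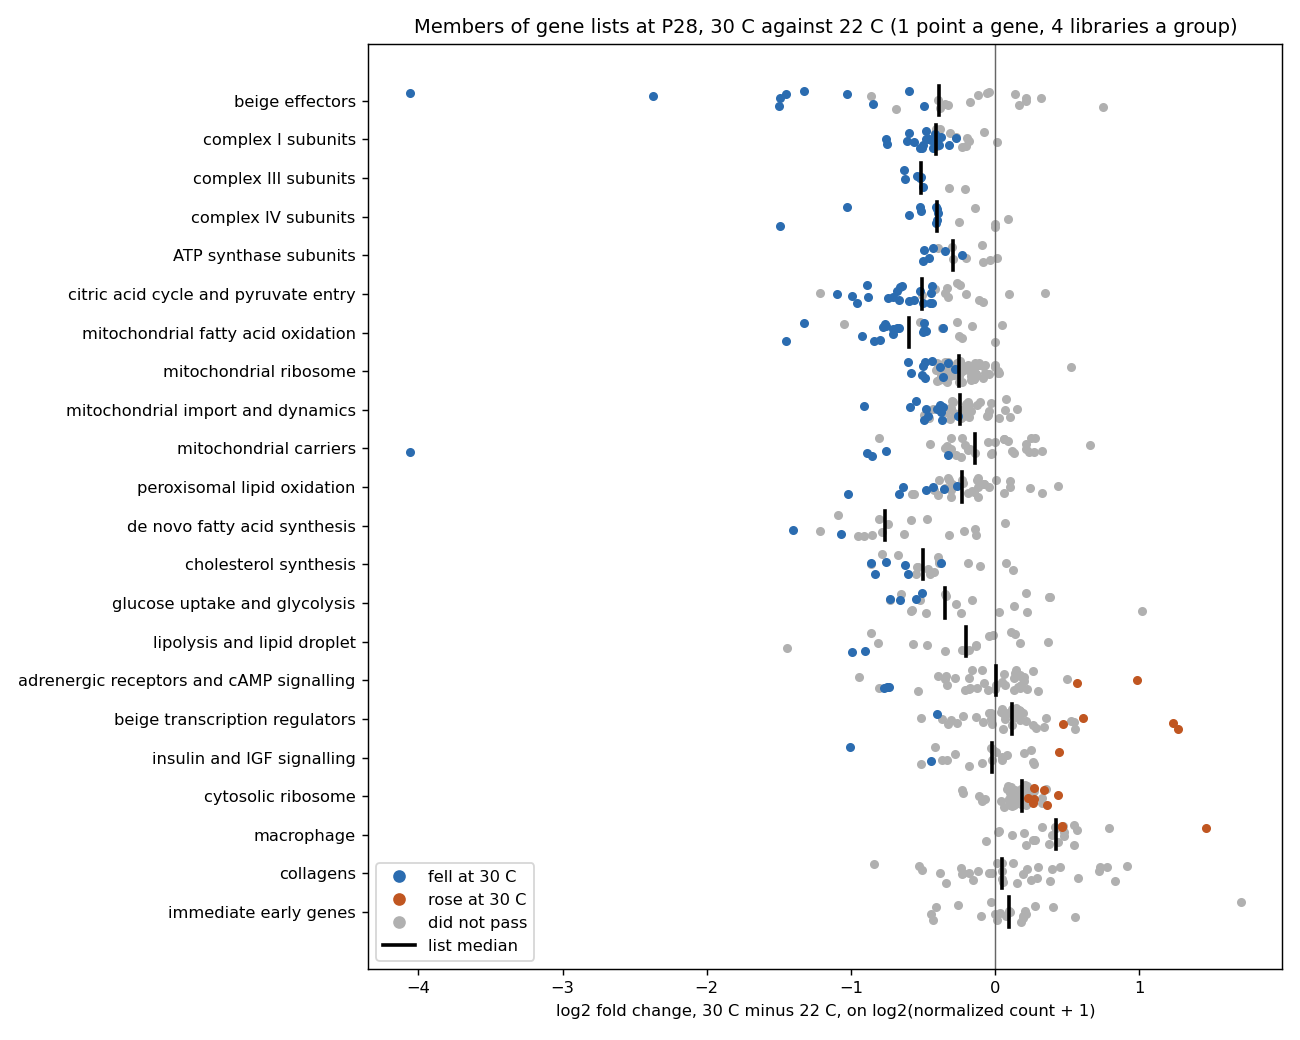
Log2 fold changes (30 C minus 22 C) of the tested members of 22 gene lists, 1 point a gene; blue and orange points passed limma's adjusted p of 0.05 and black bars are list medians. The lists of mitochondrial metabolism lie left of 0, with medians from -0.59 in fatty acid oxidation to -0.14 in mitochondrial carriers, and the cytosolic ribosome and macrophage lists lie right of it.

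De novo fatty acid synthesis had the lowest median of the pathway lists described here, -0.77 over 18 genes, yet 2 fell and 16 did not pass. That count rests on 22 C replicate 3, without which there were 9 calls, while each of the other 7 libraries left out gave 1. Scd1 (gene ID 20249, mm10 chr19:44394450-44407709), the desaturase that makes oleate, read 127650, 172460, 136470 and 217850 at 22 C and 50803, 60220, 62646 and 70005 at 30 C (-1.40 ± 0.21, limma adjusted p = 0.00978). Acacb was the other fall. Fasn, the synthase itself, overlapped between the groups at 64953, 97733, 38540 and 90540 and 22555, 48579, 38981 and 37282, with replicate 3 at 22 C inside the range of the 30 C libraries (-0.95 ± 0.33). Acly, which makes cytosolic acetyl-CoA, was similar (-1.09 ± 0.34, limma adjusted p = 0.111).

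Cholesterol synthesis had 6 falls among 22 tested genes (the count ran from 2 without 22 C replicate 2 or 22 C replicate 4 to 6 without 22 C replicate 3). Hmgcs1, the synthase that opens the pathway, read 1536, 1272, 1478 and 1502 and 750.1, 825, 703 and 922 at 22 C and 30 C (-0.86 ± 0.10), and Nsdhl gave -0.76 ± 0.09. In triglyceride synthesis and glycerol supply 3 of 19 fell, Gk, Gpd2 and Agpat2, an acyltransferase whose loss causes lipodystrophy (-1.10 ± 0.20). Abhd5, the coactivator of adipose triglyceride lipase, fell by 0.90 on the log2 scale, and with Fabp5 made the 2 falls among 19 lipolysis and droplet genes. That count was 1 without 22 C replicate 1, 2 or 4 or 30 C replicate 1 or 3. It was 9 without 22 C replicate 3. Lpl, which releases fatty acids from circulating lipoproteins, overlapped (-0.24 ± 0.13).

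Glycogen and sugar handling held one of the steepest falls. Gys2 (gene ID 232493, mm10 chr6:142422612-142473130), the glycogen synthase isoform best known from liver, read 125, 190.1, 123 and 176 at 22 C and 35.0, 41.3, 45.3 and 35.2 at 30 C, with groups far apart (-1.92 ± 0.18, limma adjusted p = 0.0017). Gbe1, the branching enzyme, fell by 0.74 on the log2 scale. Stbd1, which tethers glycogen to membranes, rose from 56.4, 41.5, 39.4 and 37.3 to 125, 81.4, 108 and 106 (1.25 ± 0.18). In glucose uptake and glycolysis 4 of 22 fell (the count ran from 2 without any of 4 libraries to 9 without 22 C replicate 3), with Pgam1 at -0.73 ± 0.10 and Pgk1 at -0.55 ± 0.08, and the insulin-responsive transporter Slc2a4 did not pass (-0.16 ± 0.13).

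Adrenergic and cyclic AMP signalling changed in both directions. Adrb3, the main beta receptor of mouse adipocytes, overlapped between 22 C (2141, 2891, 1963 and 2289.8) and 30 C (2193, 2464, 2220.3 and 1622), at -0.13 ± 0.15. Adrb1 read -0.80 ± 0.28 and did not pass. Of 42 tested genes of adrenergic and cAMP signalling 2 rose (4.76% against 1.29% of all genes) and 3 fell (7.14% against 3.17%). The count of calls was 2 without 22 C replicate 2 or 4 and 6 without 22 C replicate 3. It was 0 with the muscle score in the model. The falls included Adcy5, an adenylyl cyclase (-0.75 ± 0.13), and Prkar2b, the regulatory subunit of protein kinase A most abundant in fat (-0.77 ± 0.12). The rises included Sik1, a kinase induced by cyclic AMP (0.56 ± 0.13).

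Rgs2 (gene ID 19735, mm10 chr1:143999338-144004149), which speeds the shut-off of Gq-coupled receptors, was among the clearest rises. It read 149.8, 132, 181 and 177 at 22 C and 550.1, 448, 591 and 376 at 30 C, and the lowest 30 C library was above the highest 22 C library by a wide gap (1.60 ± 0.16, limma adjusted p = 0.00211). Ednra, the Gq-coupled endothelin receptor A, fell at the same time, from 209, 197, 157 and 193 to 99.3, 117, 112 and 112 (-0.77 ± 0.11). Immediate early genes, the fast transcriptional readout of nerve and hormone stimulation, had 0 calls among 21 tested by limma or limma-voom, 2 with an unadjusted p under 0.05, and a median of 0.10. Their mean log2 value, relative to the 22 C mean, ran from -0.76 to 0.73 at 22 C and from -0.54 to 0.78 at 30 C. A spread this wide within groups limits what 0 calls can show.

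Transcription and stress regulators gave further rises. Cebpd, a transcription factor of early adipogenesis, rose from 54.2, 45.0, 56.0 and 60.7 at 22 C to 138, 134, 155 and 101 at 30 C (1.27 ± 0.15). Ddit4, an inhibitor of mTORC1 signalling and the single gene called among 23 of the integrated stress response and amino acid supply, rose from 321, 245, 318 and 240.2 to 524, 561, 564 and 691 (1.06 ± 0.13). Depp1, an autophagy-linked gene and one of the 12 largest rises, rose from 86.1, 123, 149 and 178 to 371, 367, 316 and 502 (1.56 ± 0.22). In Cebpd, Ddit4 and Depp1 every 30 C library was higher than every 22 C library. Foxo1 itself rose by 0.44 ± 0.09, and Klf15, a glucocorticoid-induced factor, by 0.47 ± 0.10.

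Insulin signalling held one large fall. Pik3r1, the regulatory subunit of phosphoinositide 3-kinase, read 2930.3, 2800.1, 2597 and 3387 at 22 C and 1256, 1513, 1611 and 1433 at 30 C (-1.01 ± 0.10, limma adjusted p = 0.00211). Of 21 tested genes of insulin and IGF signalling 1 rose and 2 fell. Irf4 (gene ID 16364, mm10 chr13:30749233-30766981), a fasting- and cold-responsive factor of adipocytes, rose from 230.1, 303, 249 and 283 to 760.0, 738, 564 and 484, with the 2 highest values in replicates 1 and 2 (1.24 ± 0.15, limma adjusted p = 0.00499). The clock genes Per1 (0.85 ± 0.16) and Per2 (0.72 ± 0.12) rose, and the other 20 of 22 tested clock genes did not pass. Per1 passed in 3 and Per2 in 7 of the 8 fits that left out 1 library, neither without 22 C replicate 2, and neither passed with the muscle score in the model.

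**Figure D4:**
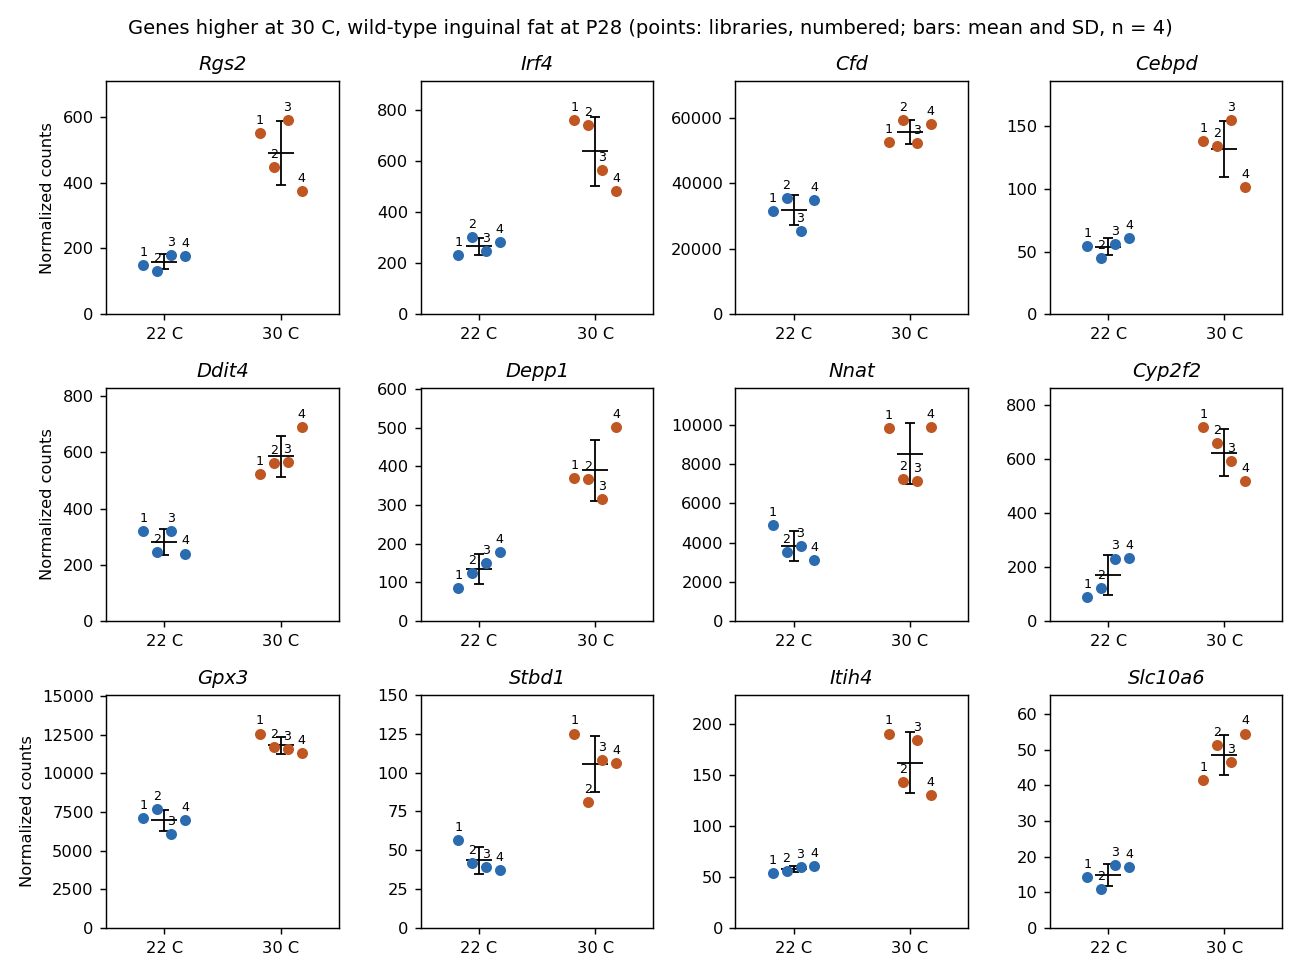
Normalized counts of 12 genes that rose at 30 C, on linear axes from 0; points are libraries with their replicate number and bars the mean and SD (n = 4). In each panel all 4 libraries at 30 C lie above all 4 at 22 C, and replicate 4 is the lowest of its group for Rgs2, Irf4 and Cebpd.

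Cish, a feedback inhibitor that Stat5 induces downstream of growth hormone, prolactin and cytokine receptors, was the single call among 30 tested genes of growth hormone and Stat5 signalling. It stood at 225, 293, 116 and 199.6 at 22 C and 61.1, 46.6, 51.5 and 60.2 at 30 C, and the 30 C values lay close together (-1.84 ± 0.25, limma adjusted p = 0.00676). Socs2, another Stat5 target, had no overlap but did not pass (-0.45 ± 0.17), and Igf1 overlapped (-0.30 ± 0.16). Bcl6, a repressor that growth hormone is known to lower, overlapped too, at 450.5, 317, 337 and 393 and 444, 619.9, 408 and 728 (0.53 ± 0.19).

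The promoter of Cish is printed because Stat5 is known to bind paired sites there, and those of Sdhd, Ndufb4 and Cyp2f2 because a binding motif of the estrogen-related receptors lies in them, beside the fall of Esrra. Each runs from 250 bases before to 50 after the annotated start, 5′ to 3′ on the gene's strand, from RefSeq on GRCm38.p6, which is mm10. Capitals mark TTCNNNGAA, the STAT motif, in Cish and TNAAGGTCA, the estrogen-related receptor motif, in the others, searched on both strands, so Sdhd shows the reverse complement. The positions are chr9:107296409-107296708 (plus strand) for Cish, chr9:50603800-50604099 (minus) for Sdhd, chr16:37654319-37654618 (minus) for Ndufb4 and chr7:27119705-27120004 (plus) for Cyp2f2.
Cish: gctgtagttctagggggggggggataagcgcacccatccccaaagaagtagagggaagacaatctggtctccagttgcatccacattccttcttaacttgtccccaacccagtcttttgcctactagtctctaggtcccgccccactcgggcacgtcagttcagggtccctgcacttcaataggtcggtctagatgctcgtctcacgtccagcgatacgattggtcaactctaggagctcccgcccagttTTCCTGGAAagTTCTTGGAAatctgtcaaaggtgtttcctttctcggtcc
Sdhd: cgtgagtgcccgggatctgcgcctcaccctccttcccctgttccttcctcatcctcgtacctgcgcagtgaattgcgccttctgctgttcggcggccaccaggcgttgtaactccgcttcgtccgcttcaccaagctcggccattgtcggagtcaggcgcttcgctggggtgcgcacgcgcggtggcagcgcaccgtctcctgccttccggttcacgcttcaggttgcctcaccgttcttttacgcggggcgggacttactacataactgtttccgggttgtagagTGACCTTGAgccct
Ndufb4: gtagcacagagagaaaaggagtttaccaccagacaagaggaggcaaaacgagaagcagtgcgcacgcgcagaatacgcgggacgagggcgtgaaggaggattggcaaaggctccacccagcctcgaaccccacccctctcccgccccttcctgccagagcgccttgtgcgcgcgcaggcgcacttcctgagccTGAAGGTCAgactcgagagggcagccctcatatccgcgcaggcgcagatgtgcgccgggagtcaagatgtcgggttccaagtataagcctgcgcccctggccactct
Cyp2f2: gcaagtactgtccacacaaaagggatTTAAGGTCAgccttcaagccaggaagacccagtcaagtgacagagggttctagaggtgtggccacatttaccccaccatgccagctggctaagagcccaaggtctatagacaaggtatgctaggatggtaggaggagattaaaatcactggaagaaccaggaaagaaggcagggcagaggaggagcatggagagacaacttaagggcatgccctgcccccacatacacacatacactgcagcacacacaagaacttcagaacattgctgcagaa

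Promoters of 9775 of the 12283 tested genes were matched by gene identifier. The STAT motif stood in 8.43% of them, in 7.72% of those that fell (25 of 324) and in 8.55% of those that rose (10 of 117), so the shares were close, and Cish held 2 copies. The estrogen-related receptor motif stood in 0.982% of all matched promoters, in 6 of 324 that fell (1.85%) and in 4 of 117 that rose (3.42%). Among respiratory chain subunits that fell it was found in 2 of 36, Sdhd and Ndufb4, and among fatty acid oxidation genes that fell in 0 of 14. Motifs of ETS factors, NRF1, the cyclic AMP response element and direct repeat 1 were searched too. They stood in 8.02, 2.78, 2.78 and 0% of promoters that fell and in 8.69, 2.29, 3.47 and 0.0614% of all. Of those that rose, 5.98, 1.71, 3.42 and 0% held them. Among the 36 respiratory chain promoters they were found in 3, 2, 1 and 0. Sdhd, which anchors succinate dehydrogenase in the membrane, read 1543, 1622, 1421 and 1599 at 22 C and 1196, 1203, 1044 and 1116 at 30 C (-0.44 ± 0.07). Ndufb4, an accessory subunit of complex I, read 339.6, 388, 322 and 343 and 252, 256, 224 and 268 (-0.48 ± 0.08). A match is a description of these letters in this window and not a measured binding site.

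Several genes with no place in these pathways changed by more than most. Cyp2f2 (gene ID 13107, mm10 chr7:27119955-27133660), a cytochrome P450 best known from airway cells, rose from 88.5, 124, 232 and 232 at 22 C to 719.6, 659, 594 and 517 at 30 C, the highest 22 C values being those of replicates 3 and 4 (1.98 ± 0.30, limma adjusted p = 0.00951). Slc10a6, a carrier of steroid sulfates, rose from 14.2, 10.8, 17.6 and 17.0 to 41.6, 51.2, 46.6 and 54.5 (1.65 ± 0.21). Itih4, a plasma protein of the acute phase, rose from 54.2, 55.8, 59.3 and 60.7, a narrow band, to 191, 143, 184 and 129.9 (1.46 ± 0.14). Paqr9 (gene ID 75552, mm10 chr9:95559634-95568022), of the progestin and adipoQ receptor family, fell from 334, 311, 266 and 402 to 85.3, 82.7, 99.5 and 117 (-1.76 ± 0.15, limma adjusted p = 0.0017). Serpina3k, a secreted protease inhibitor, fell from low counts of 27.1, 35.8, 23.1 and 13.4 to 4.37, 0.898, 0 and 5.03 (-3.13 ± 0.65), and its call was lost in 6 of the 8 fits without 1 library. R3hcc1 had the steepest fitted rise (4.41 ± 0.88) but read 16.5, 0, 0 and 0.893 at 22 C and 83.1, 40.4, 30.2 and 61.2 at 30 C, so its fold change depends on libraries at or near 0.

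Of 16 tested imprinted genes 4 rose and 0 fell: Nnat, Zim1, H19 and Peg3. Nnat, a small membrane protein of calcium handling that fat cells express, read 4895, 3502, 3819 and 3109 at 22 C and 9854, 7221, 7144 and 9911 at 30 C (1.16 ± 0.17, limma adjusted p = 0.00785). Zim1, a zinc-finger gene next to Peg3, rose from 21.6, 18.7, 15.7 and 15.8 to 46.8, 64.0, 65.4 and 30.4 (1.43 ± 0.27). H19, a noncoding RNA, was called in 1 of the 8 fits that left out a library (1.08 ± 0.23). The direction of strand in the authors' counting is not given in the sources used here, so reads of overlapping or antisense genes may be shared.

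Cytosolic ribosomal proteins leaned higher, opposite to the mitochondrial ones. Of 74 tested 7 rose and 0 fell, the median was 0.19, and 69 had a positive fold change. With 1 library left out the count ran from 1 without 22 C replicate 4 to 15 without 22 C replicate 3, with 0 when the muscle score was in the model, and 1 gene, Rps21, passed in all 8 fits. The largest rises were Rpl37 (0.44 ± 0.08) and Rps14 (0.36 ± 0.06). All 4 libraries at 30 C were above all 4 at 22 C in 23 of the 74, against 5.23% of all genes. Of 35 tested proteasome subunits 4 fell, with Psmb5 at -0.37 ± 0.07, and the median was -0.18. Here the count ran from 0 without 22 C replicate 2, 22 C replicate 4 or 30 C replicate 3 to 4 without 22 C replicate 3, there were 0 with the replicate block, and 0 genes passed in all 8 fits.

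Macrophage transcripts leaned higher. Of 24 tested markers 3 rose and 0 fell, the median was 0.42 and 23 had a positive fold change. The list summed to 0.158 to 0.193% of counts at 22 C and to 0.225 to 0.268% at 30 C, with all 24 above 0 in every library, and its part in other results was not tested. Lyz2, lysozyme, read 2189, 1896, 2018 and 2277 at 22 C and 2571, 2666, 3376 and 2968 at 30 C (0.46 ± 0.10). Trem2, a lipid receptor of adipose macrophages, read 5.90, 8.34, 4.39 and 8.93 and 24.1, 18.9, 21.4 and 16.8, low counts with no overlap (1.46 ± 0.32), and C1qb gave 0.46 ± 0.11. Each of these 3 calls was lost in at least 6 of the 8 fits without 1 library. Ccl8, a chemokine of resident macrophages, rose from 56.6, 80.0, 37.3 and 67.0 to 166, 140.2, 281 and 128, the highest being replicate 3 (1.54 ± 0.29), and the receptor Cxcr4 rose by 0.88 ± 0.12.

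Several lists of other cells leaned higher with few calls. All 9 dendritic cell markers had a positive fold change with 0 called. The list summed to 0.0120 to 0.0159% of counts at 22 C and 0.0159 to 0.0243% at 30 C. Its summed normalized counts overlapped, at 645.5 to 809.5 and 802 to 1170. Of 19 T and NK cell markers 18 were positive and 1 rose, Il7r (0.87 ± 0.15), with sums of 0.0594 to 0.0879% and 0.0760 to 0.109%. Of 18 Schwann cell markers 16 were positive, with a median of 0.28 and sums of 0.122 to 0.159% and 0.157 to 0.210%, while the 1 called, S100b, fell (-0.84 ± 0.19). Aqp1 of endothelium (0.49 ± 0.11) and Acta2 of smooth muscle (0.46 ± 0.10) rose. None of these 4 passed in all 8 fits that left out 1 library: Il7r passed in 7, S100b and Aqp1 in 1 each and Acta2 in 0. The part of these cells in other results was not tested. Of 22 adipose progenitor markers 0 were called and 4 had an unadjusted p under 0.05. Among 15 adipocyte markers the single call was Cfd, adipsin, a complement protease secreted by fat, which passed in 6 of the 8 fits, at 31592, 35623, 25404 and 34826 and 52568, 59321, 52417 and 58178 (0.81 ± 0.14). Adipoq (0.17 ± 0.09) and Lep, leptin (-0.38 ± 0.27), did not pass. By limma and limma-voom 0 of 34 collagens passed, and 0 of 39 cell cycle, 34 Wnt and 13 MHC class II genes. An unadjusted p under 0.05 was reached by 3, 2, 5 and 3 of them.

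The 9-week groups show how warming from 4 C to 22 C compared. The difference of the 2 warming effects was fitted in limma over 11618 genes and passed in 373 (3.21%), the P28 effect being lower in 1.87% and higher in 1.34%. Of the 547 genes changed at P28, 546 entered that fit and 53 differed, 48 of them with effects of opposite sign at the 2 ages. These genes were picked by the P28 effect, which is part of the tested difference, and that choice favours both counts. Age, the temperature interval and the separately normalized tables differ together between the contrasts and cannot be told apart. At 9 weeks 2.03% of genes fell with warming and 2.44% rose. Calls in the same direction were shared by 28 genes that fell, which is 7.20% of the falls at P28 and 11.4% of those at 9 weeks, and by 9 that rose, 5.70% and 3.04%. Ednra and Ttpa, a vitamin E carrier, were called in opposite directions.

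At 9 weeks the median of the 71 respiratory subunits was -0.47, beside -0.41 at P28, and 0 of the 71 differed by limma's adjusted test and 3 by an unadjusted p under 0.05, which does not show that the effects are equal. In other oxidative lists the difference was called in 1 of 26 fatty acid oxidation genes, 1 of 32 of the citric acid cycle and pyruvate entry, 1 of 39 peroxisomal genes and 2 of 25 of branched-chain amino acid breakdown. Over all genes the share was 3.21%. De novo fatty acid synthesis had a median of 0.09 at 9 weeks, beside -0.77 at P28, and 3 of 18 genes differed. So did 7 of 37 interferon-induced, 3 of 10 MHC class II and 4 of 29 collagen genes. In all of these the P28 effect was lower. Ucp1 fell at 9 weeks too (-6.17 ± 0.53), and the difference of 2.11 ± 0.70 did not pass (limma adjusted p = 0.12). For Gk the fold change was -4.21 ± 0.42 at 9 weeks and the difference 2.71 ± 0.51 (limma adjusted p = 0.0128).

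In the signalling lists the difference was called in 4 of 42 genes of adrenergic and cAMP signalling and 2 of 30 of growth hormone and Stat5 signalling. It was called in 2 of 21 genes of insulin and IGF signalling and 2 of 23 of the stress response list. Each of these shares was above the 3.21% of all genes, though most members gave no call. Among the genes named above, Rgs2 rose at P28 and read -1.43 ± 0.36 at 9 weeks, a difference of 3.04 ± 0.42 (limma adjusted p = 0.00272). Cish was lower with warmth at P28 and read 2.15 ± 0.68 at 9 weeks, a difference of -3.99 ± 0.77 (limma adjusted p = 0.0138). Adrb3, not called at P28, read 1.49 ± 0.36 at 9 weeks (difference -1.62 ± 0.42, limma adjusted p = 0.0489). Ednra differed by -1.49 ± 0.17 and Adcy5 by -1.13 ± 0.23. Depp1, Ddit4, Cebpd and Foxo1 had P28 effects higher by 1.98, 1.22, 1.19 and 0.92. Cyp2f2 and Slc10a6 differed by 2.79 ± 0.55 and 2.45 ± 0.34, Zim1 by 2.44 ± 0.56 and Ttpa by 2.45 ± 0.31. Paqr9 fell at P28 and read -0.42 ± 0.23 at 9 weeks, a difference of -1.34 ± 0.29. For Irf4 the difference of 1.60 ± 0.42 missed the threshold (limma adjusted p = 0.0531), and for Nnat, which rose at both ages, it was -2.29 ± 0.85 (limma adjusted p = 0.165).

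**Figure D5:**
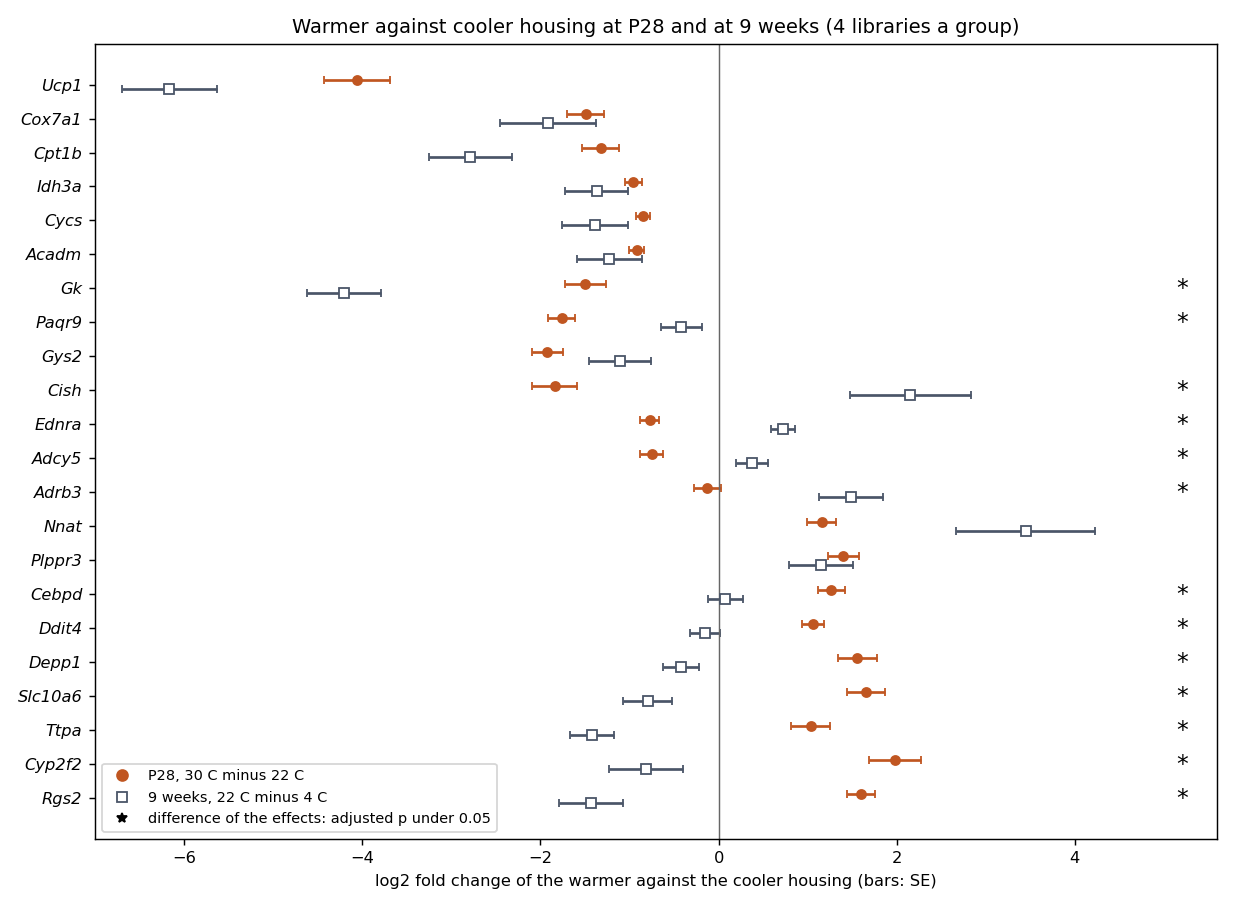
Log2 fold changes of warmer against cooler housing with SE for 22 genes, at P28 (30 C minus 22 C, filled circles) and at 9 weeks (22 C minus 4 C, open squares), 4 libraries a group. Asterisks mark genes whose 2 effects differ at a limma adjusted p under 0.05; Ucp1 and the oxidative genes lie left of 0 at both ages, while Rgs2 and Cish lie on opposite sides.

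Of the genes called at P28, 118 falls and 38 rises passed in all 8 fits that each left out 1 library. Among them were Ucp1, Otop1, Gk, Cox7a1, Cycs, Idh3a, Acadm, Gys2, Scd1, Cish, Rgs2 and Irf4. A fit that included the muscle score, which is itself higher in 3 of the 4 libraries at 30 C, left calls in fewer genes: 69 fell (0.562%) and 13 rose (0.106%). Within the Xist-high libraries alone, 2 at 22 C and 3 at 30 C, 2 genes passed, while the list medians were -0.36 for complex I, -0.56 for fatty acid oxidation and 0.48 for macrophage markers.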

How the data were processed

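Poly(A) RNA of flash-frozen inguinal fat was sequenced from a stranded mRNA kit, per the labels' protocols. The deposited signal values are estimated counts per gene scaled between libraries, per the file headers and the values. The submitters' processing notes name kallisto, DESeq2 and mm10. Their versions, the annotation and the strand setting are not given in the sources used. From 66.1 to 69.6% of low values lay within 0.02 of a whole number of reads, too few to recover reads, so no count test was run.

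Genes with at least 10 in at least 4 libraries were tested with limma 3.58.1 (trend, R 4.3.3) on log2(value + 1), with adjusted p over all genes tested. The model was tested on simulated data: of 200 changed genes among 12283, 74% with 2-fold and 93% with 4-fold changes were recovered, with 10 false calls. The simulated noise was independent for each gene, so it does not measure false calls from differences shared across a library, such as muscle RNA. Symbols, positions and promoters came from RefSeq tables on GRCm38.p6, and 21 of 22622 identifiers had no symbol. The members and the 68 gene lists were chosen with earlier results of these data known. Named genes were a panel of 10, the 12 largest rises and falls without overlap, and for each list the 4 smallest p plus members of textbook role. Alternatives changed the pseudocount, filter, scaling (trimmed mean of M values, quantile), test (limma-voom), weights, replicate block, muscle score and Xist covariates, and left out each library.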

Additional observations from a re-analysis of the deposited data

Results flagged for a closer look

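Single libraries stood far from their group in 2 of 110 groups of 4 values checked by Dixon's test, which flags about 1 group in 20 by chance. R3hcc1 read 16.5 in replicate 1 at 22 C, where the other libraries of that group held 0 to 0.893. Prkar2b read 3053 in replicate 4 at 30 C, above the other 3 libraries of that group.

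The warming effect at P28 minus that at 9 weeks passed limma's adjusted p of 0.05 in 15 of the genes described. Effects at P28 were higher for Rgs2 (3.04), Cyp2f2 (2.79), Gk (2.71), Slc10a6 (2.45), Ttpa (2.45), Zim1 (2.44), Depp1 (1.98), Ddit4 (1.22), Cebpd (1.19) and Foxo1 (0.92), all on the log2 scale. They were lower for Cish (-3.99), Adrb3 (-1.62), Ednra (-1.49), Paqr9 (-1.34) and Adcy5 (-1.13). Adrb3 is the one of these that was not called at P28.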

How the results depend on the processing

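The count of genes changed at P28 stayed within 1.5 times of 547 under other pseudocounts, filters, TMM and quantile scaling, limma-voom and an Xist covariate (407 to 619). It was 905 with library weights, 236 with the replicate block and 82 with the muscle score covariate. In the Xist-high libraries alone, chosen after seeing the data and with 2 against 3 samples, it was 2. Leaving out 1 library gave 177 to 733: 314, 203, 733 and 177 without 22 C replicates 1 to 4, and 287, 289, 296 and 315 without those at 30 C. Same-numbered deviations correlated at -0.66 to -0.02, so no pairing by replicate number was seen. Library differences such as Xist level could mask a pairing, so this check cannot exclude one. The 373 genes whose effect differed between ages became 558 with the replicate block and 160 to 572 without 1 library: 160, 170 and 246 without P28 22 C replicates 1, 2 and 4, 160 and 210 without 30 C replicates 1 and 3, 572 without 9-week 22 C replicate 3 and 170 without 4 C replicate 1. The cause was not tested. Of 266 named genes none reversed direction past the threshold, and 70 of the 142 called passed in all 8 fits without 1 library. At this depth, changes of low genes such as Serpina3k and Trem2 rest on few reads.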
